A study of Mus musculus with 6 samples.

Results

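The core circadian clock was followed through 10 genes, Arntl, Clock, Npas2, Per1, Per2, Per3, Cry1, Cry2, Nr1d1 and Dbp, taken by symbol from a table of read counts for 46603 genes. All 10 were found once in the table and all 10 passed the filter on low counts that left 15440 genes for testing. RNA came from CD11B+ cells that had been pulled from mouse kidneys with antibody-coated magnetic beads 3 days after both renal pedicles were clamped for 28 minutes (bilateral ischemia reperfusion injury, IRI-AKI). The 3 libraries of the PTEC DN RAR group carried the genotype PEPCK CRE+ with Rosa26-LSL-RARaT403X, in which Cre from the PEPCK promoter switches on a truncated, dominant negative retinoic acid receptor in proximal tubular epithelial cells (PTECs). The 3 Cre- control libraries carried the same Rosa26 allele without Cre, and all mice were males of 10 to 12 weeks that underwent the injury. The receptor was therefore blocked in tubule cells and not by design in the CD11B+ cells that were sequenced, and no uninjured library entered the comparison. The hour of the day at which kidneys were taken is not given in the sources used here.

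The mammalian clock is a transcriptional loop that runs in nearly every cell, macrophages and tubule cells included. BMAL1 (the product of Arntl) pairs with CLOCK or its paralog NPAS2, binds E-box sequences and switches on the Per and Cry genes, whose proteins return to the nucleus and stop that activity. The same pair drives Nr1d1, which encodes the repressor REV-ERB alpha, and Dbp, which encodes an activator of genes with D-box sequences. REV-ERB alpha in turn represses Arntl through elements that it shares with the ROR receptors, so that transcripts of Arntl and of Dbp, Nr1d1 and the Per genes peak at opposite times of day. In macrophages the loop is known to time the release of chemokines and cytokines, and in the kidney it times tubular transport.

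Promoter windows are shown for Per1, Per3 and Cry1, whose windows held more than 1 match to the sequences searched for, and for Nr1d1, which rose in the comparison below and held 1. RefSeq windows on GRCm38.p6 were found for 9 of the 10 genes, 13 windows in all, and none was found for Per2. The 250 bases before each start were searched on both strands for the E-box CACGTG, the related E-prime box CACGTT, which reads AACGTG on the opposite strand, the nuclear receptor half-site AGGTCA, which reads TGACCT there, the D-box TTATGNAA and the cAMP response element TGACGTCA. Matches are in capitals, each sequence reads 5′ to 3′ towards the start site, and no match overlapped another.
Per1 (chr11:69098699-69098948, plus strand): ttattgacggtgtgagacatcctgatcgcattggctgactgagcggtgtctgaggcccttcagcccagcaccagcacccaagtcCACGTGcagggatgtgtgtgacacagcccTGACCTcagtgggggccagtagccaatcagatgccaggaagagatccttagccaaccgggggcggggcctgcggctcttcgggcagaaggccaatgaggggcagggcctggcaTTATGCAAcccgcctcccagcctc
Per3 (chr4:151044666-151044915, minus strand): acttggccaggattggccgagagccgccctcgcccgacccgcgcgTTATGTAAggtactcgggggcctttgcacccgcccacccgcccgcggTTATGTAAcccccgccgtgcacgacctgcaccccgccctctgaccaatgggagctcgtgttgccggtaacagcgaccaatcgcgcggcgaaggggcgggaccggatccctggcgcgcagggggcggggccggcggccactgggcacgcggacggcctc
Cry1 (chr10:85185055-85185304, minus strand): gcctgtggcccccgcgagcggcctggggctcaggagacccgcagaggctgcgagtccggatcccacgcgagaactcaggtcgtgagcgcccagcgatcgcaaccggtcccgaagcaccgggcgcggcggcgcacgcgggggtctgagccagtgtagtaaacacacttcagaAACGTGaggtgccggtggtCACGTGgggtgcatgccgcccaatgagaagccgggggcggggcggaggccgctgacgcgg
Nr1d1 (chr11:98775378-98775627, minus strand): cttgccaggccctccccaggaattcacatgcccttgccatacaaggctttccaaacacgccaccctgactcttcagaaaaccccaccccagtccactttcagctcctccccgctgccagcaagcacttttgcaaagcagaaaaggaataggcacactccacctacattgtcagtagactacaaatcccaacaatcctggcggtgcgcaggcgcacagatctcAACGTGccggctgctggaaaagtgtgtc
The E-box CACGTG lay 166 bases before the start in Per1 and 60 bases before it in Cry1, and 6.02% of all 32851 windows of this length held one. Cry1 had an E-prime box 79 bases before the start and Nr1d1 had one 28 bases before it, a sequence present in 3.85% of windows. The D-box, to which DBP binds, was found at 205 and 158 bases before the start of Per3 and at 24 bases before that of Per1, against 3.07% of windows. Per1 also held a half-site 137 bases before the start, a sequence in 14% of windows. In the other members, Cry2 held an E-prime box at 166 bases and 1 of the windows of Clock held a half-site at 119 bases. The windows of Arntl, Npas2 and Dbp held none of the 5 sequences. Nor did the other window of Per1 (chr11:69099902-69100151), which is not shown, or the other windows of Clock. A match describes the letters of the window and is not a measured binding site.

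Gene counts summed to between 29318041 and 40741507 in Cre- control libraries and between 42113139 and 46517005 in PTEC DN RAR libraries. At that depth 3 reads correspond to between 0.0645 and 0.102 CPM (read counts scaled to the library total), a limit that covers counting error only. Levels below are CPM after TMM scaling, which evens out library composition. Fold changes, their standard errors (SE) and adjusted p values come from edgeR's quasi-likelihood test across all genes with Benjamini-Hochberg adjustment, and a gene is said to have risen or fallen where the adjusted p was under 0.05. Whether a library came from 1 mouse or a pool is not given in the sources used here, so the p values and SDs measure the spread between these libraries. Libraries of the 2 genotypes differed widely: 23.6% of genes tested were higher and 17.1% lower in PTEC DN RAR libraries, and the mitochondrial share of counts lay between 10.4% and 12.1% in PTEC DN RAR libraries but between 5.04% and 8.77% in Cre- controls.

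In PTEC DN RAR libraries Dbp (2.08-fold), Nr1d1 (1.79-fold) and Per2 (1.65-fold) rose and Arntl fell to 0.674 of its control level, while Clock, Per1, Per3, Cry1, Cry2 and Npas2 did not pass the test. Of the 10 genes, 3 rose, against the 23.6% of all genes that did, and 1 fell, against 17.1%, so the number of calls among the clock genes was near that of the background. Groups did not overlap in 5 genes that were higher in PTEC DN RAR libraries and in 1 that was lower, beside 29.2% and 24.2% of all genes. The median log2 fold change was 0.38 over the 10 genes and 0.04 over all genes tested. The plot of levels in each library shows the direction of each gene.

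**Figure D1:**
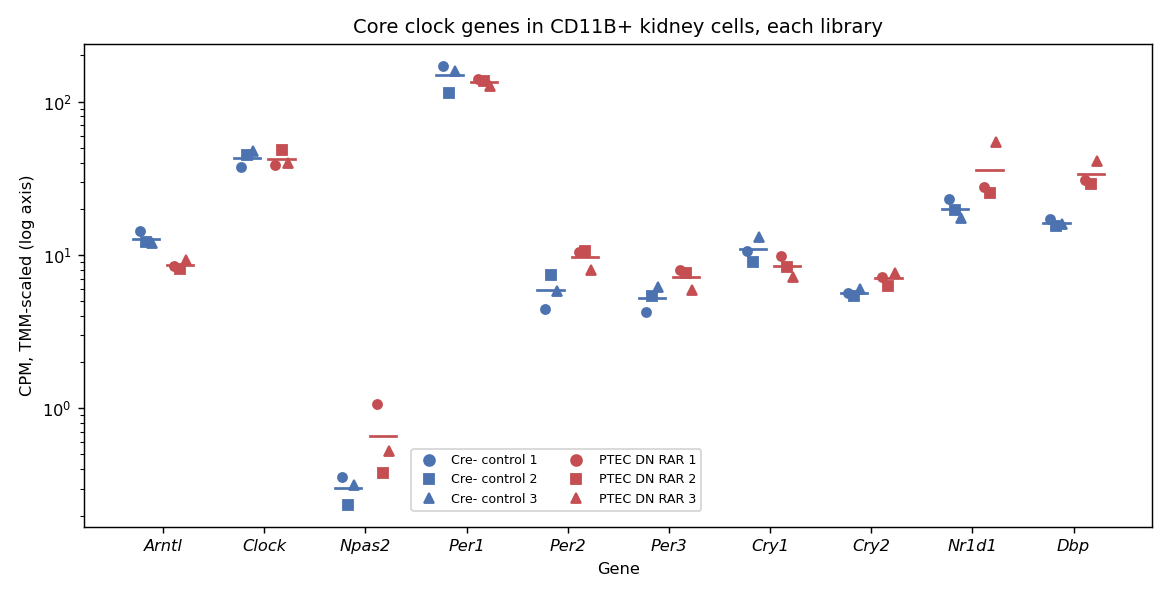
Level of each of the 10 clock genes in every library, as TMM-scaled CPM on a log axis, with blue symbols for Cre- controls, red symbols for PTEC DN RAR and a bar at each group mean. Dbp, Nr1d1, Per2, Cry2 and Npas2 are higher in all 3 red libraries than in all 3 blue ones, Arntl is lower, and the groups overlap in Clock, Per1, Per3 and Cry1.

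Among the activators, Arntl (chr7:113207465-113314126 of GRCm38) stood at 14.2, 12.1 and 11.9 CPM without Cre and at 8.48, 8.08 and 9.22 CPM with DN RAR in PTECs. Every PTEC DN RAR library lay below every control, and the log2 fold change was -0.57 (SE 0.13, edgeR adjusted p = 0.00925). With libraries scaled on 20 pan-leukocyte genes in place of TMM, Arntl was at -0.36 and was not called (edgeR adjusted p = 0.135). Clock (chr5:76209868-76304792), which encodes the partner of BMAL1, measured 37.2, 44.6 and 47.7 CPM against 38.4, 48.3 and 39.8 CPM. These groups overlapped almost completely, and the log2 fold change of -0.03 had a 95% interval from -0.32 to 0.25, so a change of Clock as large as that of Arntl lay outside the interval. Npas2 (chr1:39193731-39363236), the paralog of Clock, was close to the limit of detection, with 14, 7 and 10 reads in the controls and 45, 16 and 25 reads in PTEC DN RAR libraries. Its levels were 0.359, 0.235 and 0.317 CPM against 1.08, 0.377 and 0.530 CPM, with PTEC DN RAR library 1 far above the others, and its log2 fold change of 1.10 (SE 0.47) did not pass (edgeR adjusted p = 0.0918) and was 0.57 without that library.

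The 3 Period genes, whose proteins repress CLOCK and BMAL1, differed in what they showed. Per1 (chr11:69095217-69109960), which also responds acutely to glucocorticoids and cAMP, measured 171, 114 and 159 CPM in controls against 140, 136 and 127 CPM with DN RAR. The 3 PTEC DN RAR values fell within the range of the controls, and the log2 fold change was -0.14 (95% interval from -0.46 to 0.18, edgeR adjusted p = 0.455). Without Cre- control library 2, the lowest of the controls, Per1 was lower with a log2 fold change of -0.34 (edgeR adjusted p = 0.0298). Per2 (chr1:91415982-91459324) rose from 4.46, 7.41 and 5.80 CPM to 10.5, 10.7 and 7.95 CPM, a log2 fold change of 0.72 (SE 0.21, edgeR adjusted p = 0.0244). The lowest PTEC DN RAR library was just above the highest control, and the call was lost when any 1 of 4 libraries was left out, Cre- control 1 or 3 or PTEC DN RAR 1 or 2, with log2 fold changes of 0.55, 0.67, 0.66 and 0.65. Per3 (chr4:151003652-151044665) measured 4.23, 5.43 and 6.15 CPM against 7.98, 7.66 and 5.93 CPM. PTEC DN RAR library 3 overlapped the controls, and the log2 fold change of 0.45 did not pass (SE 0.19, edgeR adjusted p = 0.0917).

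The cryptochromes, which complete the repressor complex, moved to opposite sides of 0 without passing the test. Cry1 (chr10:85131700-85185064), the stronger repressor of the pair, measured 10.6, 9.02 and 13.2 CPM in controls against 9.80, 8.37 and 7.21 CPM with DN RAR, with overlapping groups. Its log2 fold change was -0.37 with a 95% interval from -0.78 to 0.04 (edgeR adjusted p = 0.130). Cry2 (chr2:92403646-92434043) measured 5.66, 5.40 and 5.99 CPM against 7.22, 6.32 and 7.63 CPM. Every PTEC DN RAR library was above every control, but the log2 fold change of 0.31 had an interval from -0.02 to 0.64 and an edgeR adjusted p of 0.117.

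Nr1d1 (chr11:98767932-98775333), the gene for the repressor REV-ERB alpha, measured 23.1, 19.5 and 17.3 CPM in controls against 27.9, 25.3 and 54.3 CPM with DN RAR. The groups did not overlap, and the log2 fold change was 0.84 (SE 0.27, edgeR adjusted p = 0.0366). PTEC DN RAR library 3 stood far above the other libraries of its group, and without it the log2 fold change was 0.37 and no longer passed (edgeR adjusted p = 0.0867). The call was also lost without Cre- control library 2 (0.78) or 3 (0.70). It was lost as well with limma-voom (0.76, adjusted p = 0.0633) and with the replicate number as a block (0.76, edgeR adjusted p = 0.0689). Among PTEC DN RAR libraries, number 3 also had the highest level of Dbp, the highest summed markers of thick ascending limb (6938 CPM) and distal convoluted tubule (1115 CPM) and the lowest of resident macrophages (12690 CPM). The part of these in the level of Nr1d1 was not tested. Nr1d1 shares 263 exonic bases with Thra, a thyroid hormone receptor gene on the opposite strand, and whether counting used strand is not given in the sources used here. Thra itself rose, from 20.0, 15.4 and 16.8 CPM to 31.3, 30.0 and 34.7 CPM (log2 fold change 0.88, SE 0.12, edgeR adjusted p = 0.00114). Reads that fell in several genes were left out of the counts.

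Dbp (chr7:45705088-45710203), the output factor of the loop, had the smallest adjusted p of the 10 genes. It measured 17.2, 15.4 and 15.8 CPM in controls against 30.8, 28.9 and 40.9 CPM with DN RAR, with a wide gap between the groups. The log2 fold change was 1.05 (SE 0.14, edgeR adjusted p = 0.001), a fold of 2.08. Dbp remained called without any 1 of the 6 libraries, at log2 fold changes from 0.84 to 1.15. It shares 539 exonic bases with Sphk2 on the opposite strand, a sphingosine kinase gene that measured 67.7, 47.4 and 57.7 CPM against 59.7, 48.9 and 57.0 CPM and did not pass (log2 fold change -0.06, edgeR adjusted p = 0.743).

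Compared per kilobase of exon, Per1 was the most abundant of the 10 transcripts in Cre- controls, at a mean level of 26.3 CPM per kb, followed by Nr1d1 at 6.50 and Dbp at 5.39, whose ranges overlapped. Cry1 at 3.27 and Clock at 3.15 CPM per kb came next and overlapped, then Arntl at 1.70. Per2 at 1.01 and Cry2 at 0.899 CPM per kb overlapped, and Per3 at 0.548 and Npas2 at 0.0633 were the lowest. In PTEC DN RAR libraries Per1 was again first at 23.9 CPM per kb. Nr1d1 at 11.7 and Dbp at 11.2 CPM per kb followed with overlapping ranges. Per2, below Arntl in the controls, stood above it here, with levels from 1.36 to 1.82 CPM per kb for Per2 and from 1.07 to 1.23 for Arntl.

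**Figure D2:**
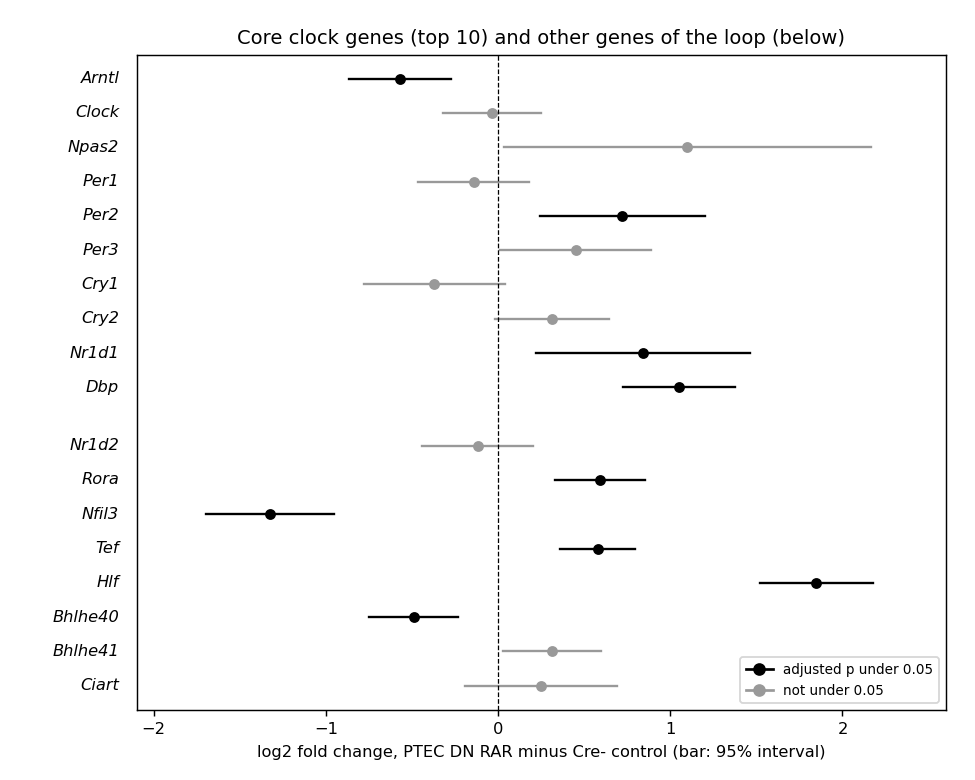
Log2 fold change of PTEC DN RAR over Cre- controls with its 95% interval for the 10 core clock genes (upper block) and 8 other genes of the loop (lower block), black where the adjusted p was under 0.05 and grey where it was not. Hlf lies farthest to the right and Nfil3 farthest to the left, and the intervals of Clock, Per1 and Nr1d2 span 0.

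Among 10 other genes of the oscillator, 9 could be tested, of which 3 rose and 2 fell, near the 23.6% and 17.1% of all genes, with a median log2 fold change of 0.25. Both relatives of Dbp rose. Hlf, which like Dbp encodes a PAR bZIP activator at D-boxes, went from 3.13, 2.92 and 3.48 CPM to 11.3, 12.3 and 10.8 CPM, a log2 fold change of 1.85 (SE 0.14, edgeR adjusted p = 0.000181). Tef, the third of these factors, went from 51.5, 54.4 and 61.3 CPM to 89.4, 81.1 and 78.9 CPM, a log2 fold change of 0.58. Nfil3, which encodes the repressor that competes with them at D-boxes, fell from 146, 108 and 147 CPM to 49.2, 45.7 and 65.2 CPM, a log2 fold change of -1.33 (SE 0.16, edgeR adjusted p = 0.000707). None of these 4 factors, Dbp included, had overlapping groups, beside 29.2% of all genes that were higher and 24.2% that were lower without overlap. Dbp, Hlf and Tef lay above 0 and Nfil3 below it. The 4 factors were not tested as a group.

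Rora, which encodes a nuclear receptor that activates Arntl, rose from 10.9, 11.3 and 11.6 CPM to 15.4, 18.2 and 17.4 CPM (log2 fold change 0.59). Rorb was at most 14 reads in any library and was not tested. Nr1d2, the paralog of Nr1d1, measured 40.6, 54.8 and 52.6 CPM against 39.4, 44.5 and 52.2 CPM. The groups overlapped and its log2 fold change of -0.12 had an interval from -0.44 to 0.20. Bhlhe40, which encodes a further E-box repressor, fell from 266, 196 and 229.5 CPM to 161, 161.5 and 169.5 CPM (log2 fold change -0.49, edgeR adjusted p = 0.0101), a call that was lost when libraries were scaled on 20 pan-leukocyte genes in place of TMM (-0.28, edgeR adjusted p = 0.139). Groups did not overlap in its paralog Bhlhe41, which was higher with DN RAR but did not pass (log2 fold change 0.31, edgeR adjusted p = 0.0761). It was called under that scaling (0.51) and without Cre- control 3 (0.39). The repressor gene Ciart (0.25) did not pass, and Arntl2, at most 0.40 CPM, had overlapping groups.

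**Figure D3:**
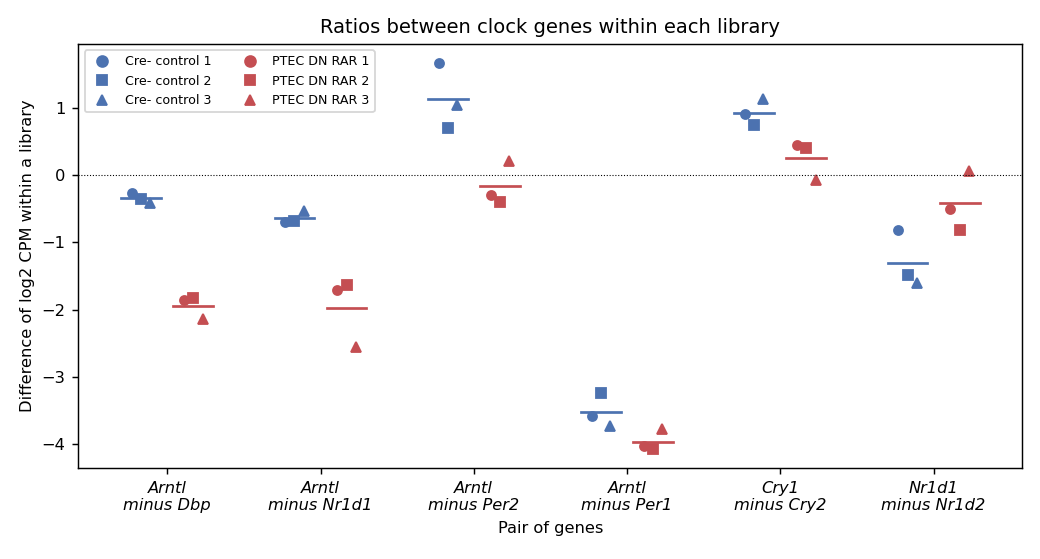
Difference of log2 CPM between 2 clock genes within the same library, for 6 pairs, with blue symbols for Cre- controls, red for PTEC DN RAR and a bar at each group mean. Arntl minus Dbp lies between -0.41 and -0.27 in the blue libraries and between -2.14 and -1.83 in the red ones, and Nr1d1 minus Nr1d2 overlaps between groups.

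Whether the clock stood at another phase in the 2 groups was described with ratios inside each library, where the scaling of a library cancels but for a small prior count. On the log2 scale Arntl minus Dbp was -0.27, -0.35 and -0.41 without Cre and -1.85, -1.83 and -2.14 with DN RAR. Group means thus lay -1.60 apart. That gap restates the fall of Arntl and the rise of Dbp given above and is no separate evidence on phase. The spread within groups was small beside that gap, with SDs of 0.07 and 0.17 (n = 3 each). Leaving out each library in turn kept the difference between -1.66 and -1.50. Other pairs, chosen with these values known, are given as values, and those with Arntl share its fall. Arntl minus Nr1d1 was -0.64 ± 0.09 without Cre against -1.97 ± 0.51 with DN RAR, and Arntl minus Per2 was 1.13 ± 0.49 and -0.16 ± 0.33 (log2, mean ± SD, n = 3 each). Arntl minus Per1 was -3.52 ± 0.25 and -3.96 ± 0.16. Cry1 minus Cry2 was 0.92 ± 0.20 in the controls and 0.25 ± 0.29 in PTEC DN RAR libraries, again without overlap. Groups overlapped in Nr1d1 minus Nr1d2, at -1.30 ± 0.43 against -0.42 ± 0.44, and in Per2 minus Per1, at -4.65 ± 0.66 against -3.80 ± 0.17. Arntl minus Clock was -1.75 ± 0.32 against -2.28 ± 0.25.

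The mean of the 3 activator genes minus the mean of Per1, Per2, Per3, Nr1d1 and Dbp was -1.47, -1.66 and -1.55 without Cre and -1.81, -2.13 and -2.15 with DN RAR, which put the group means -0.47 apart on the log2 scale. Without Npas2, at most 45 reads in any library, the difference was -0.87, and without both Npas2 and Per3 it was -0.90. Per1 and Nr1d2, whose transcripts rise at about the same time of day as Dbp, had no call, with log2 fold changes of -0.14 and -0.12. All libraries came from 1 day after injury, and whether the groups were collected at the same hour is not known. A different hour of collection, a shift of phase, and a change of mean level or amplitude cannot be told apart. Nor can these be told from a change in which cells contributed RNA.

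Kinases, phosphatases, ubiquitin ligases and deubiquitinases set the stability of clock proteins. Of 14 such genes 3 rose, 3 fell and 8 did not pass, near the 23.6% and 17.1% of all genes that rose and fell, with a median log2 fold change of -0.07. Usp2, a deubiquitinase gene that is itself a clock output, rose from 12.0 ± 1.54 to 25.4 ± 2.96 CPM (mean ± SD, n = 3 each, log2 fold change 1.08), and Ppp5c rose by 0.39. Fbxl21, for an F-box protein that binds cryptochromes, rose by 1.20 from at most 16 reads in any control. Its call was lost without Cre- control 1 or 2 or PTEC DN RAR 2 or 3, at log2 fold changes from 0.97 to 1.21. The kinase genes Csnk1d (-0.28) and Gsk3b (-0.30) and the deubiquitinase gene Usp7 (-0.30) fell, and none of these 3 was called under pan-leukocyte scaling. The call of Usp7 was also lost with scaling by library size only (edgeR adjusted p = 0.0647), with at least 10 counts asked of each library (edgeR adjusted p = 0.0527) and without any 1 library other than Cre- control 1, that of Csnk1d without PTEC DN RAR 2, and that of Gsk3b without Cre- control 3 or PTEC DN RAR 1.

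Since Per1 is a target of the glucocorticoid receptor, 10 genes of that response, the receptor gene Nr3c1 included, were set beside it. Of these 3 rose, 1 fell and 6 did not pass, beside 23.6% and 17.1% of all genes, with a median log2 fold change of 0.03. With DESeq2, with its size factors in edgeR or with no filter, 3 of them were called lower. Zbtb16 (1.14), Klf9 (0.98) and Errfi1 (0.44) rose and Dusp1 (-0.94), a phosphatase gene that also responds to stress kinases, fell. The call of Errfi1 was lost without Cre- control 2 (0.34), Cre- control 3 (0.36) or PTEC DN RAR 2 (0.34). Tsc22d3, a strong target of the receptor in macrophages, measured 212, 111 and 159 CPM against 170, 211 and 119 CPM with no call, and its log2 fold change of 0.05 ranged from -0.20 to 0.29 with each library left out in turn. Of 8 genes with known BMAL1 or REV-ERB alpha control in macrophages 5 fell and none rose, beside 17.1% and 23.6% of all genes. Under pan-leukocyte scaling 2 fell (Ccl2 and Mmp9), Cx3cr1 rose (0.34, edgeR adjusted p = 0.0376), and Il6 (-0.98), Alox5 (-0.26) and Nampt (-0.21) were not called. The chemokine gene Ccl2 had a log2 fold change of -1.99, the gelatinase gene Mmp9 of -2.09 and Il6 of -1.19, the last at most 2.72 CPM and with overlapping groups, while Cx3cr1, a gene with a REV-ERB controlled enhancer, did not pass (0.14). Nampt (-0.42) and Alox5 (-0.46), for the enzyme that starts leukotriene synthesis, also fell. The call of Il6 was lost without Cre- control 1 or 2 or PTEC DN RAR 1 or 3 (edgeR adjusted p from 0.0715 to 0.111) and with limma-voom (adjusted p = 0.0535), and that of Alox5 without Cre- control 2 or 3 or PTEC DN RAR 2 or 3 (from 0.0591 to 0.0925) or with the replicate number as a block (0.0622).

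Markers of other cells moved with genotype in the same libraries, and their part in the clock genes was not tested. Summed markers of the proximal tubule were between 519 and 661 CPM in Cre- controls and between 1781 and 2663 CPM in PTEC DN RAR libraries, and all 10 of the list rose. Those of the thick ascending limb were between 1027 and 1447 CPM and between 3574 and 6938 CPM (5 of 5 rose), of the distal convoluted tubule between 145 and 179 CPM and between 635 and 1115 CPM (4 of 4), and of endothelium between 71.1 and 104 CPM and between 198 and 241 CPM (6 of 6). Podocyte markers were between 41.3 and 70.7 CPM and between 127 and 154 CPM, and B cell markers between 23.5 and 30.9 CPM and between 33.1 and 49.3 CPM. The summed lists for collecting duct, stroma, dendritic cells and NK and T cells overlapped between groups. Of their tested markers 3 of 5, 4 of 5, 2 of 5 and 1 of 4 rose, in that order, and none fell. Infiltrating monocyte markers were lower, between 1164 and 1347 CPM against 2402 to 2632 CPM in controls (6 of 7 fell), as were neutrophil markers, between 292 and 412 CPM against 461 to 834 CPM (5 of 7 fell). Resident macrophage markers overlapped, between 14040 and 15240 CPM in controls and between 12690 and 16170 CPM in PTEC DN RAR libraries. No marker of any list was at 0 in all libraries. Pan-leukocyte markers were abundant in every library, between 15920 and 16680 CPM in controls and between 12350 and 14760 CPM in PTEC DN RAR libraries. That list is not particular to CD11B+ cells, so it checks for leukocytes only. In bulk RNA, fewer cells of a type and less RNA per cell cannot be told apart. With the mean of the proximal tubule markers as a covariate no gene was called in either direction by edgeR, and 473 of all genes but none of the 10 clock genes had an unadjusted p under 0.05. That covariate separated the genotypes, so it and genotype cannot be told apart.

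**Figure D4:**
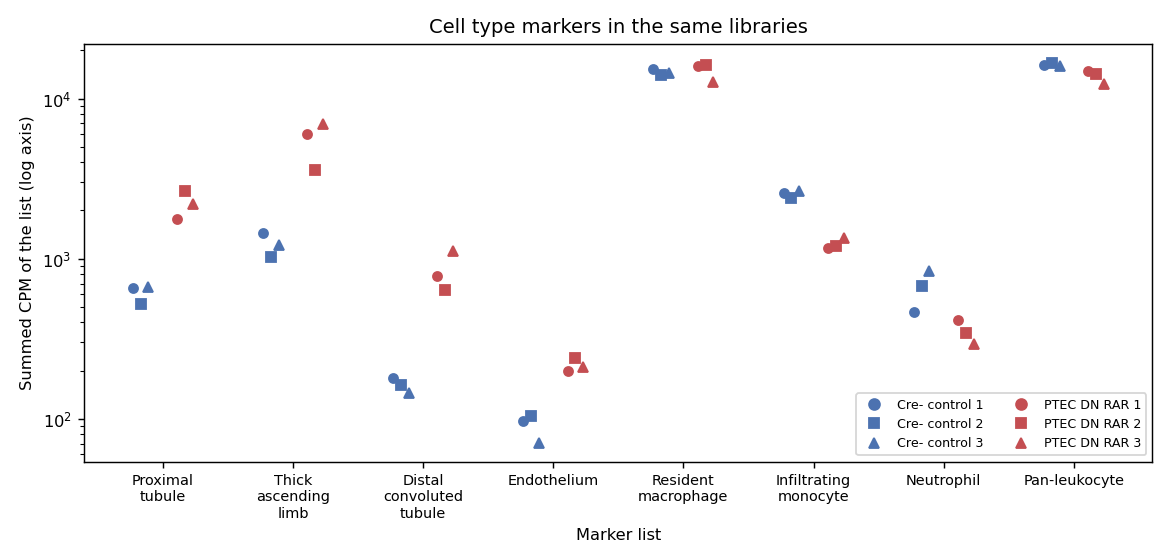
Summed CPM of 8 marker lists in every library, on a log axis, with blue symbols for Cre- controls and red for PTEC DN RAR. Tubule and endothelial lists are higher in all red libraries, monocyte and neutrophil lists are lower, and the resident macrophage list overlaps.

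Pan-leukocyte scaling moved the median over all genes tested from 0.04 to 0.24 (log2 fold change) and moved the calls over all genes from 3640 higher and 2636 lower to 4704 and 696. Under it Dbp (1.28), Nr1d1 (1.09) and Per2 (0.92) were again higher and Per3 (0.64) was also called. Arntl was still negative, at -0.36, but was not called (edgeR adjusted p = 0.135), and Clock (0.17) and Per1 (0.06) changed sign without a call.

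**Figure D5:**
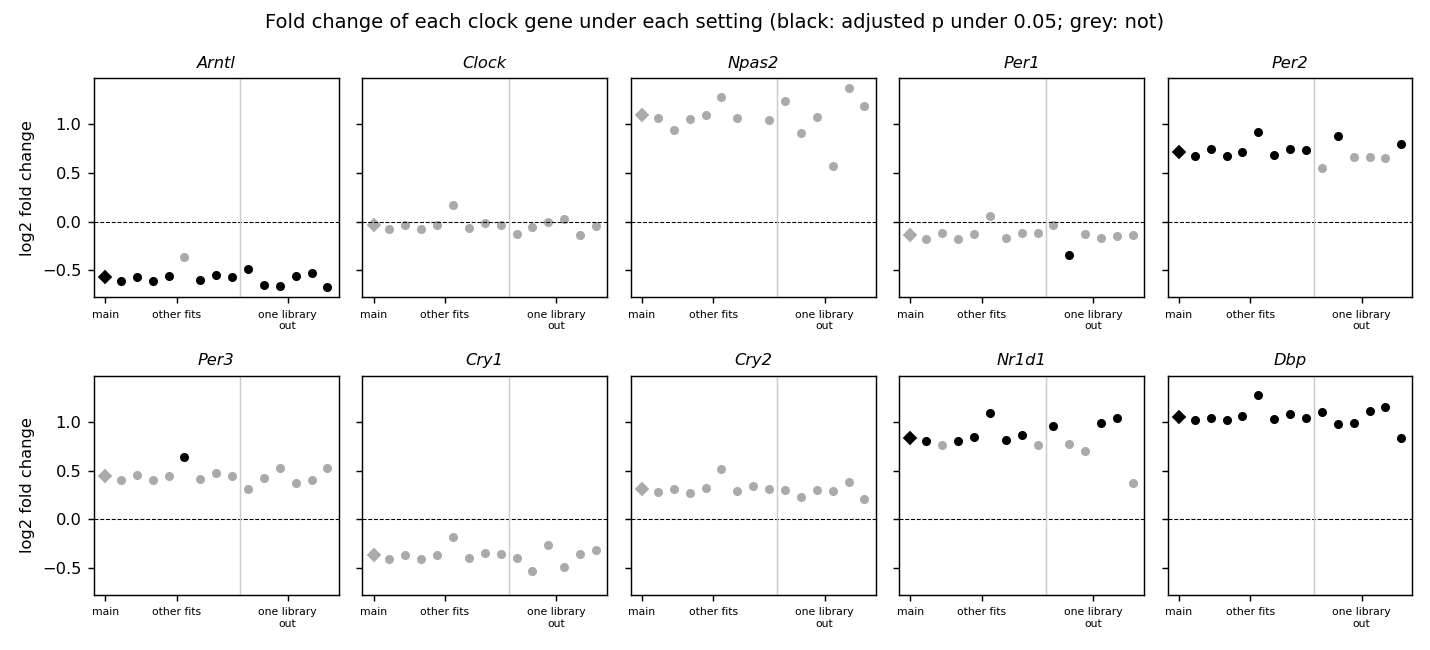
Log2 fold change of each clock gene in the main fit (diamond), in 8 other fits (7 for Npas2) and with each library left out in turn (circles), black where the adjusted p was under 0.05 and grey where it was not. The fit with the proximal tubule covariate is left out, Dbp is black throughout, Arntl is grey in 1 fit, and Nr1d1 drops to 0.37 at the right end, without PTEC DN RAR library 3.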

How the data were processed

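RNA-Seq of CD11B+ kidney cells was analysed in 6 libraries, 3 per genotype as labelled. The authors deposited raw read counts per Ensembl gene. The submitters' processing notes name STAR 2.5.0a, HTSeq 0.6.1, edgeR, limma and GRCm38 without roles, and the annotation and strand setting are not given in the sources used here. Reads aligned to more than 1 place (from 42.9% to 47.8% of lines), in no gene (from 2.39% to 3.97%) or in several genes (at most 0.527%) were left out, which lowers counts of near-identical genes. After 9 repeated lines were collapsed and 27 date-like symbols restored, 46603 genes remained. Coordinates and exon lengths are from GENCODE M21 on GRCm38.

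After the filterByExpr filter and TMM scaling, edgeR 4.0.16 (glmQLFit, glmQLFTest; R 4.3.3) gave the tests, with adjustment over 15440 genes. The SE is the log2 fold change over the square root of F. Log2 CPM used a prior count of 2. Alternatives used limma 3.58.1 (voom), DESeq2 1.42.0, other scalings and filters, a replicate block, a covariate and each library left out. The main edgeR fit, limma-voom and DESeq2 were tried on simulated counts, and the other alternatives were not. Libraries of 1 genotype differed by a chi-square per degree of freedom of at least 27.1, so none was counted as entered more than once.

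The clock genes and all lists were chosen with earlier results of these data known. Named are the 10 clock genes, the other genes of the oscillator (1 result is not reported here), up to 4 called genes per further list with the largest change, and genes overlapping a clock gene. Cx3cr1, Tsc22d3, Csnk1d, Gsk3b and Nampt are outside that rule and were named after their values were seen.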

Additional observations from a re-analysis of the deposited data

How the results depend on the processing

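Fold changes of 39 named genes were recomputed under 15 alternatives, 583 fits in all. Direction was kept in 561 of them, 74 calls were lost, 52 of these outside the fit with the proximal tubule covariate, and 5 were gained. Requiring 10 counts in each of the libraries left out Npas2 and Arntl2. With the covariate 0 genes were called in either direction, so every count of calls, over all genes, the clock genes and each list, was 0, and the log2 fold changes of Ciart (-0.59), Klf9 (-0.35), Errfi1 (-0.59), Alox5 (0.70), Tsc22d3 (-1.66) and Camta1 (-0.03), a gene overlapping Per3, reversed. With pan-leukocyte scaling, 0 clock genes, 0 clock enzymes, 1 other clock gene, 2 macrophage outputs and 696 of all genes were called lower, 1 macrophage output was called higher, and Clock (0.17), Per1 (0.06), Nr1d2 (0.10) and Sphk2 (0.15) reversed. DESeq2, its size factors in edgeR and no filter each called 3 glucocorticoid-responsive genes lower, against 1. The difference between activators and the E-box driven arm was -0.90 without Npas2 and Per3, and -0.87 without Npas2 alone, an alternative chosen after seeing the data. Arntl2, at 0.00 in the reported fit, was negative with DESeq2 (-0.05), its size factors (-0.03), no filter (-0.03) and the replicate block (-0.01). The cause of these shifts was not tested, other than that the pan-leukocyte genes set a different zero.

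Leaving out each library in turn gave from 1 to 2 clock genes called higher, against 3, and from 1 to 2 called lower, since Per1 was called without Cre- control 2. Only Dbp was called higher without Cre- control 3. Over all genes from 2433 to 3699 were called higher and from 1874 to 2824 lower. Clock enzymes called lower ranged from 1 to 5, with 5 without Cre- control 1 and 1 without Cre- control 3 or PTEC DN RAR 1 or 2. Glucocorticoid-responsive genes called lower ranged from 1 to 3, with 3 without Cre- control 2. Macrophage outputs called lower ranged from 3 to 4, with 3 without Cre- control 2 or PTEC DN RAR 3. Clock ranged from -0.14 to 0.03 and reversed without PTEC DN RAR 1, and Sphk2 ranged from -0.23 to 0.07 and reversed without Cre- control 1 (0.07) or PTEC DN RAR 2 (0.02). Tsc22d3 ranged from -0.20 to 0.29 and reversed without Cre- control 2 or 3 (-0.01) or PTEC DN RAR 2 (-0.16). Arntl2 ranged from -0.35 to 0.23 and reversed without Cre- control 1 (-0.29) or PTEC DN RAR 3.

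Deviations of same-numbered libraries from their group means correlated at -0.0147, 0.211 and 0.0286. With so few libraries per group, these values cannot decide whether libraries of the same number were paired. With the replicate block 3612 genes were called higher and 2606 lower, and of the clock genes Nr1d1 (0.76, edgeR adjusted p = 0.0689) lost its call, as it did with limma-voom (0.76, adjusted p = 0.0633). At the depth of these libraries 3 reads were between 0.0645 and 0.102 CPM, and Npas2 was between 0.235 and 1.08 CPM.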
